A study of Mus musculus with 18 samples.

Results

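A pooled CRISPR screen in MC38 cells was read out as 2 sequencing libraries, 1 from Rag1-knockout hosts and 1 from C57BL/6 wild-type hosts, out of 18 libraries in the series. MC38 is a mouse colon adenocarcinoma line that grows in C57BL/6 mice. Both libraries were selected by their labels and compared in full: 18146 guides, of which 18122 target 4532 genes and 24 are named as controls (CTRL0001 to CTRL0024). Of the targeted genes, 4529 had 4 guides each and 3 had fewer. Both host groups received MC38 cells carrying the same kind of library (labelled crispr library), and the hosts differ in Rag1, which is knocked out in the B6-Rag1-KO mice. The labels give no host age, no time of tumour growth and no number of mice or tumours per library, and no library of the cells before implantation was analysed here. The other 16 libraries are RNA sequencing of MC38 cells and tumours. Of these, 3 libraries of cultured cells, labelled Mbtps1 WT, served below as a record of which targeted genes MC38 expresses. A further 5 libraries of tumours with the same label were used beside them, and these do not separate mRNA of MC38 from that of host cells.

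In a pooled screen each cell carries a guide RNA that directs Cas9 to cut 1 gene, and the share of sequencing reads that a guide takes in the harvested tumours stands for the share of cells carrying it. Rag1 encodes a subunit of the recombinase that assembles antigen receptor genes, so mice without it lack mature T and B cells while they keep natural killer and myeloid cells. The comparison asks which guides take a different share of the tumour cells in hosts with and without these lymphocytes. With 1 library per host there is no replicate of either host, so every difference below is a description of these libraries and none carries a test. A guide table holds no host transcripts, so the genotype of the hosts could not be checked in it.

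The Rag1-knockout library held 19114273 reads and the C57BL/6 library 27142741. A guide had a median of 777.5 reads in the Rag1-knockout library and 1211 in the C57BL/6 library. At these depths 1 read was worth 0.0523 CPM (counts scaled to a common library total) in the Rag1-knockout library and 0.0368 CPM in the C57BL/6 library. Nearly every guide was recovered: 8 guides were at 0 in the Rag1-knockout library (0.0441% of guides) and 13 in the C57BL/6 library (0.0716%), with 4 of them at 0 in both. Those 4 guides target Mbtps1, Mia2, Psmd2 and Timm23.

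The Rag1-knockout library was the more skewed of the pair. Its Gini index, which is 0 when all guides are equally abundant and 1 when a single guide takes all reads, was 0.461, against 0.419 in the C57BL/6 library. The guide at the 90th percentile had 13.03 times the reads of the guide at the 10th percentile in the Rag1-knockout library and 10.8 times in the C57BL/6 library. The most abundant 1% of guides, 182 in each library, took 6.25% of the reads in the Rag1-knockout library and 4.57% in the C57BL/6 library. Only 13 guides were in both of these sets, 7.14% of each.

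Single abundant guides were rarely matched by the other guides of their gene. The most abundant guide of the Rag1-knockout library targets Amn, which encodes amnionless, a partner of the vitamin B12 receptor of gut and kidney. It stood at 1759 CPM in Rag1-knockout hosts and 157 CPM in C57BL/6 hosts, 11.2-fold higher (95% exact binomial interval 10.9 to 11.6, counting error only). The other 3 Amn guides lay between 67.4 and 121 CPM in Rag1-knockout hosts and between 60.2 and 129 CPM in C57BL/6 hosts. The next guides in that library target B930041F14Rik (1189 CPM in Rag1-knockout and 207 CPM in C57BL/6 hosts), Olfr221 (963 CPM in Rag1-knockout and 151 CPM in C57BL/6 hosts), Kirrel (820 CPM in Rag1-knockout and 535 CPM in C57BL/6 hosts) and Mslnl (710 CPM in Rag1-knockout and 67.3 CPM in C57BL/6 hosts). In the C57BL/6 library the most abundant guide targets Atp9b, a phospholipid-flipping ATPase of the P4 type, at 83.3 CPM in Rag1-knockout hosts and 855 CPM in C57BL/6 hosts. The other 3 Atp9b guides reached at most 38.3 CPM in Rag1-knockout and 67.1 CPM in C57BL/6 hosts. Guides to Olfr1404 (72.6 CPM in Rag1-knockout and 573 CPM in C57BL/6 hosts), Olfr1258 (119 CPM in Rag1-knockout and 478 CPM in C57BL/6 hosts) and Pcdhga9 (230 CPM in Rag1-knockout and 460 CPM in C57BL/6 hosts) followed, along with the Kirrel guide already given. Kirrel, an adhesion molecule gene of the immunoglobulin family, was the exception among these genes: a further guide of it stood at 706 CPM in Rag1-knockout and 245 CPM in C57BL/6 hosts, and the gene had the highest summed abundance of all genes with 4 guides.

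Guide abundance in the hosts was related but far from equal. Over the 18108 guides with at least 20 reads in both libraries together, log2 CPM correlated with a Pearson r of 0.77 and a Spearman rho of 0.74 across guides, which share the cell line and the libraries and are not independent replicates. The log2 ratio, Rag1-knockout over C57BL/6, was taken with 1 CPM added to each value. It had a median of -0.12 and an SD of 0.93, and ran from -4.54 to 4.72. For the median guide, counting error alone corresponds to an SD of 0.0675 on this scale. A ratio of 2-fold or more towards Rag1-knockout hosts was reached by 2006 guides (11.1% of those measured) and a ratio as large towards C57BL/6 hosts by 2698 (14.9%).

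Control guides varied between the hosts as much as targeting guides did. The 24 control guides had a median log2 ratio of -0.08 and an SD of 0.98, against -0.12 and 0.93 for the 18084 targeting guides. Of the controls, 3 were at least 2-fold higher and 4 at least 2-fold lower in Rag1-knockout hosts. CTRL0001 stood at 381 CPM in Rag1-knockout and 77.4 CPM in C57BL/6 hosts, a log2 ratio of 2.28. CTRL0006 stood at 8.63 CPM in Rag1-knockout and 33.4 CPM in C57BL/6 hosts, a log2 ratio of -1.84. The deposited table does not say which sequences the controls carry, so that they cut no gene is taken from their name.

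The guides of a gene hardly moved together between the hosts. Among the 4492 genes with all 4 guides measured, 1.51% of the variance of the log2 ratio lay between genes (intraclass correlation 0.015), and the SD among guides of the same gene was 0.92. Abundance itself was shared more: 14.04% of the variance of log2 CPM lay between genes in the Rag1-knockout library and 15.3% in the C57BL/6 library. A typical gene spanned 1.75 log2 units between its lowest and highest guide. Guides on both sides of equality were found in 3890 of 4529 genes with at least 3 measured guides (85.9%). All guides were higher in Rag1-knockout hosts for 181 genes (4% of genes) and lower for 458 (10.1%). At least 1 guide was 2-fold higher and another 2-fold lower in Rag1-knockout hosts in 647 genes (14.3%).

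Genes were then summarised by the median log2 ratio over their guides. The 4529 gene medians had an SD of 0.501 and an overall median of -0.12. A median of at least 1 was seen in 83 genes (1.83%) and a median of at most -1 in 161 (3.55%). Of the 83, 26 had every measured guide higher in Rag1-knockout hosts, and of the 161, 68 had every guide lower. No gene had all guides at least 2-fold higher, and 4 genes had all guides at least 2-fold lower. The balance of directions rested on the scaling: with the libraries scaled by the median guide ratio instead of the total, the median of all genes moved up by 0.12, giving 131 genes higher and 92 lower, so that higher genes made up 58.7% of those past 2-fold in place of 34.0%.

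The 10 genes with the highest medians and all guides on 1 side were Nup93, Ept1, Clec9a, Emc1, Olfr1047, Lrcol1, Ear2, Slc4a9, Olfr1462 and Txndc16. Ept1 encodes the enzyme that joins ethanolamine to diacylglycerol in the synthesis of phosphatidylethanolamine. Its 4 guides stood at 36.4, 116, 150 and 263 CPM in Rag1-knockout hosts, against 24.4, 10.5, 33.8 and 38.2 CPM in C57BL/6 hosts. The log2 ratios of the Ept1 guides ran from 0.56 to 3.34, with a median of 2.44. The summed reads were 5.29-fold higher (95% interval 5.08 to 5.52, counting error only). Clec9a encodes a C-type lectin known from dendritic cells that take up dead cells. Its guides stood at 46.2, 54.8, 68.4 and 217 CPM in Rag1-knockout hosts, against 11.3, 40.0, 11.6 and 37.2 CPM in C57BL/6 hosts. The log2 ratios of the Clec9a guides ran from 0.44 to 2.51, with a median of 2.20.

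Nup93 and Emc1 had high ratios on few reads. Nup93 encodes a scaffold protein of the nuclear pore. Its guides were at 0.157, 5.91, 12.3 and 24.6 CPM in Rag1-knockout hosts, against 0, 0.111, 11.7 and 1.11 CPM in C57BL/6 hosts. The first of these guides had 3 reads in all and was left out of the median of 2.64, and with every guide counted the median was 1.42. Emc1 encodes a subunit of the complex that inserts membrane proteins into the endoplasmic reticulum. Its guides were at 7.59, 3.24, 22.3 and 29.1 CPM in Rag1-knockout hosts, against 0.884, 0.626, 20.8 and 6.52 CPM in C57BL/6 hosts, a median of 1.69 that fell short of 1 (0.82) when 5 CPM was added in place of 1. The remaining 6 genes had medians from 1.37 to 1.54. Among them, Ear2, a ribonuclease gene of eosinophils, had guides at 31.3, 53.5, 142 and 62.4 CPM in Rag1-knockout hosts and at 15.7, 12.97, 23.7 and 37.5 CPM in C57BL/6 hosts, and Slc4a9 (1.42) belongs to the bicarbonate transporter family.

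The 10 genes with the lowest medians and all guides on 1 side included Npc1l1, Olfr869, Olfr24, Scap, Atp9b, Olfr362, Tnfrsf1b, Saa4 and Xlr5b. Npc1l1 encodes the sterol importer of the gut that ezetimibe blocks. Its guides stood at 37.1, 23.6, 15.5 and 35.4 CPM in Rag1-knockout hosts, against 126, 128, 27.5 and 202 CPM in C57BL/6 hosts, a median of -2.06 and summed reads at 0.231 times the C57BL/6 level (95% interval 0.221 to 0.242). Tnfrsf1b encodes TNF receptor 2, and its guides stood at 63.0, 46.8, 12.9 and 63.9 CPM in Rag1-knockout hosts and at 90.2, 72.0, 78.7 and 347 CPM in C57BL/6 hosts. The Tnfrsf1b median was -1.52, and leaving out 1 guide at a time moved it between -2.42 and -0.61. The Atp9b median of -1.64 includes the most abundant guide of the C57BL/6 library, and it moved between -2.86 and -0.42 when a guide was left out.

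These 20 genes were a mixture of genes that MC38 expresses and genes it was not seen to express. In the control cultured cells, 4 of the 10 high genes and 4 of the 10 low genes had at least 10 CPM of mRNA. The share was 15.7% of all 83 genes past 2-fold higher, 25.5% of the 161 past 2-fold lower and 19.5% of all genes counted. Among the 20, Nup93 averaged 116 ± 6.08 CPM, Ept1 87.3 ± 9.49 CPM, Scap 77.6 ± 3.64 CPM and Clec9a 21.8 ± 0.324 CPM (SD, n = 3 each). The gene table had no row for 4 of the high and 5 of the low genes, and 1 of each was listed at 0. Of the 20 genes, 16 stayed past 2-fold under each of the 10 other ways of scaling, filtering and summarising that were tried. When any 1 guide was left out, 15 stayed past it. The genes were picked from the same reads for extreme medians with all guides on 1 side, which favours both counts.

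Mbtps1 and its partners were covered by a set of genes around site-1 protease and sterol control. Site-1 protease, the product of Mbtps1, cuts the SREBP factors and the stress sensor ATF6 in the Golgi, and SCAP escorts SREBP there. Mbtps1 was the only gene with 4 guides of which fewer than 3 passed the filter on reads, and it is therefore outside the counts above. Its guides had 17, 24, 551 and 0 reads in the Rag1-knockout library, against 0, 96, 66 and 0 reads in the C57BL/6 library. As levels these were 0.889, 1.26, 28.8 and 0 CPM in Rag1-knockout hosts and 0, 3.54, 2.43 and 0 CPM in C57BL/6 hosts. Its summed abundance over both libraries was the 13th lowest of the 4529 genes with 4 guides. Guide SMprotein_08717 was 11.9-fold higher in Rag1-knockout hosts (95% interval 9.17 to 15.5, counting error only). Guide SMprotein_08716 went the other way, at 0.355 times its C57BL/6 level (95% interval 0.217 to 0.56). Guide SMprotein_08715 was at least 8.05-fold higher, counted against 3 reads in the C57BL/6 library. The exact 95% lower limit, which also covers the counting error of its 17 reads, was 5.86-fold. The fourth was at 0 in both. The median over the 2 guides past the filter was 1.06. Over all 4 it was 0.46, but there the guide without reads enters at 0 only through the added 1 CPM and measures nothing. The guides of Mbtps1 with reads did not agree on a direction. Cultured control cells expressed Mbtps1 at 127 ± 8.80 CPM (SD, n = 3).

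Among the other genes of this set, 2 of 9 counted were at least 2-fold lower in Rag1-knockout hosts and 0 were higher. All genes had 3.55% lower and 1.83% higher. The median of the set was -0.32 beside -0.12 for all genes. Scap guides stood at 11.9, 2.93, 1.78 and 7.59 CPM in Rag1-knockout hosts, against 35.1, 12.9, 17.3 and 15.6 CPM in C57BL/6 hosts. The log2 ratios of these guides ran from -2.72 to -0.95, and the median was -1.65. Atf6 (-0.06), Creb3l1 (-0.08), Creb3l3 (-0.06), Insig2 (-0.32) and Lamp1 (-0.54) were within 2-fold. Guides to Mbtps2, which encodes the site-2 protease, were not analysed here.

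Class I antigen presentation was represented by Tapbp, Tapbpl and Erap1, and guides to B2m, H2-K1, H2-D1, Tap1 and Tap2 were not analysed here. All 3 medians were below that of all genes. Of the 3, 1 was at least 2-fold lower and 0 were higher, where all genes had 1.83% higher and 3.55% lower. Tapbp encodes tapasin, which loads peptides onto class I molecules. Its guides stood at 8.89, 18.5, 2.04 and 5.44 CPM in Rag1-knockout hosts and at 10.7, 29.7, 21.8 and 10.9 CPM in C57BL/6 hosts. The Tapbp median was -0.77. Each of its guides was lower in Rag1-knockout hosts, as all guides were for 10.1% of all genes. Tapbpl, the tapasin-like peptide editor, had a median of -0.61. Erap1 trims peptides in the endoplasmic reticulum and had the lowest median, -1.09, with guides from -1.81 to 1.95. Its summed reads gave 0.13, on the other side of equality.

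Of the interferon receptor chains, Ifngr1 was higher with every guide, as 4% of all genes were, and Ifnar2 had the lowest median. Ifngr1 encodes the ligand-binding chain of the interferon gamma receptor. Its guides stood at 4.71, 19.3, 45.3 and 22.5 CPM in Rag1-knockout hosts, against 4.27, 12.01, 21.3 and 4.90 CPM in C57BL/6 hosts. The log2 ratios of these guides ran from 0.11, close to equality, to 1.99. The Ifngr1 median was 0.85, short of 2-fold, and its summed reads were 2.16-fold higher (95% interval 2.01 to 2.33, counting error only). Ifnar2, a chain of the type I interferon receptor, had guides at 48.1, 22.2, 33.6 and 12.2 CPM in Rag1-knockout hosts and 15.8, 54.8, 115 and 42.3 CPM in C57BL/6 hosts. In 3 of its 4 guides the level was lower in Rag1-knockout hosts, for a median of -1.49, but the mean over the 4 guides was -0.80, short of 2-fold. Ifnar1, the partner chain, had a median of 0.13. Il10rb, a chain shared by interleukin-10 and type III interferon receptors, had 0.18.

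The list of checkpoint and inhibitory ligands showed no common direction. It also holds genes of costimulatory ligands (Icosl, Cd80 and Cd86) and of a receptor (Btla). Of 14 targeted genes, 0 were at least 2-fold higher and 1 at least 2-fold lower in Rag1-knockout hosts, where all genes had 1.83% higher and 3.55% lower. The list had a median of -0.17. Cd274, which encodes PD-L1, had guides at 39.8, 74.3, 61.9 and 89.7 CPM in Rag1-knockout hosts and 48.9, 44.2, 50.7 and 49.8 CPM in C57BL/6 hosts. In 3 of 4 guides it was higher in Rag1-knockout hosts, and the median was 0.51. Pdcd1lg2, which encodes PD-L2, had the highest median of the list (0.90, guides from -0.55 to 1.84). Cd47, a brake on phagocytosis, had a median of -0.49 with guides from -2.87 to 0.21, and Icosl, a costimulatory ligand, had the lowest (-1.21, guides from -2.29 to -0.30). Among the ligands of natural killer receptors, Raet1e (-0.16), Ulbp1 (-0.07) and Cd48 (0.47) were all within 2-fold.

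Guides to receptors of the TNF superfamily were mostly less abundant in Rag1-knockout hosts. The 15 genes had a median of -0.67, and 2 of them lay above the median of all genes (-0.12). Of the 15, 3 were at least 2-fold lower (20%, against 3.55% of all genes) and 0 were higher. These 3 were Tnfrsf1b, Fas and Cd40. Fas encodes a receptor that triggers cell death, and its guides stood at 19.8, 8.84, 0.262 and 24.0 CPM in Rag1-knockout hosts and at 52.5, 24.7, 0.479 and 36.3 CPM in C57BL/6 hosts. One Fas guide had too few reads for the median of -1.36. Cd40, a costimulatory receptor, had guides at 28.5, 35.4, 11.5 and 43.4 CPM in Rag1-knockout hosts and 106, 23.6, 30.1 and 95.6 CPM in C57BL/6 hosts, 3 of 4 lower. Tnfrsf1a, the main receptor of TNF, had a median of -0.01. Expression of these receptors varied widely: Cd40 was listed at 0 in cultured control cells and Fas stood at 0.615 ± 0.158 CPM (SD, n = 3), while Tnfrsf1a stood at 93.5 ± 4.93 CPM.

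Receptors of the TGF-beta family leaned towards Rag1-knockout hosts, with a median of 0.32 over 8 genes, 2 of them at least 2-fold higher and 0 lower (all genes 1.83% and 3.55%). Tgfbr2 encodes the ligand-binding receptor of TGF-beta. Its 4 guides were alike and abundant, at 248, 236, 221 and 241 CPM in Rag1-knockout hosts, against 165, 61.5, 122 and 99.3 CPM in C57BL/6 hosts. All 4 guides were higher in Rag1-knockout hosts, as all guides were for 4% of all genes. Their log2 ratios ran from 0.58 to 1.92, with a median of 1.06. The summed reads of Tgfbr2 were 2.11-fold higher (95% interval 2.06 to 2.16, counting error only). Only 3 of the 4529 genes with 4 guides had more summed CPM over both hosts. Tgfbr1, which encodes the signalling partner of that receptor, had guides at 134, 11.9, 142 and 29.2 CPM in Rag1-knockout hosts and 78.3, 7.44, 121 and 62.6 CPM in C57BL/6 hosts, with a median of 0.42. Acvr1c, the gene of the nodal receptor ALK7, had a median of 1.24 and was the other gene past 2-fold. The gene table of mRNA had no row for Acvr1c. For Tgfbr2, 2 of the 4 guides were past 2-fold, and leaving out 1 guide moved its median between 0.85 and 1.27. Acvrl1 of endothelium had the lowest median (-0.29).

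Of 36 receptor tyrosine kinases, 0 were higher and 2 lower past 2-fold (all genes 1.83% and 3.55%), with a median of -0.29 and extremes at Erbb3 (0.62) and the collagen receptor gene Ddr2 (-1.15). Wnt and Notch receptors had a median of -0.07 over 13 genes, from Fzd6 (-1.09) to Fzd1 (0.52). Ectoenzymes and receptors of adenosine and other purines had a median of 0.24 over 8 genes, against -0.12 for all genes, from Entpd3 (-1.01) to P2rx7 (0.91). Across the settings tried, 8 of the 19 list medians took both signs, among them the interferon, checkpoint and Wnt lists, and 11 kept their sign, the receptor tyrosine kinase and purine lists included. The TNF and TGF-beta receptor medians stayed within -0.68 to -0.55 and 0.27 to 0.44.

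Some of the membrane protein genes that dividing cells need were scarce in both hosts. The list of 14 such genes had a median gene level of 12.4 CPM in Rag1-knockout hosts and 19.5 CPM in C57BL/6 hosts, where all genes had 42.7 CPM in Rag1-knockout and 45.9 CPM in C57BL/6 hosts. Both hosts had under 10 CPM for 6 of the 14 genes and for 63 of all 4532. Slc7a5 (61.1 CPM in Rag1-knockout and 76.0 CPM in C57BL/6 hosts), Ost4 (61.2 CPM in Rag1-knockout and 58.0 CPM in C57BL/6 hosts) and Ssr2 (50.6 CPM in Rag1-knockout and 102 CPM in C57BL/6 hosts) lay above the level of all genes. Without a library from before implantation, loss in the cells and a low starting share cannot be told apart. Atp2a2, the calcium pump of the endoplasmic reticulum, had guides at 14.2, 0.523, 2.25 and 2.20 CPM in Rag1-knockout hosts and 13.7, 1.55, 0 and 1.55 CPM in C57BL/6 hosts. Tfrc, the transferrin receptor gene, had guides at 2.14, 5.39, 52.0 and 3.24 CPM in Rag1-knockout hosts and 0.663, 3.02, 15.6 and 4.05 CPM in C57BL/6 hosts, and the highest median ratio of the list (0.79). Of the 14, 0 were at least 2-fold higher and 1 at least 2-fold lower (all genes 1.83% and 3.55%). The median log2 ratio of the list was -0.21, against -0.12 for all genes. It took both signs across the settings tried (-0.33 to 0.02). The 10 genes with the lowest summed CPM over both hosts, a set chosen after the values were seen, were Snrpf, Psmd2, Olfr39, Dpagt1, Copa, Atp6ap1, Med24, Rrp12, Snap23 and Atp2a2. Control cultured cells expressed 9 of these at 10 CPM or more, and the gene table had no row for Olfr39. Snrpf, a core protein of spliceosomal particles, had 6.07 CPM over 4 guides in Rag1-knockout hosts and 4.72 CPM in C57BL/6 hosts. Copa, a subunit of the COPI vesicle coat, had 12.1 CPM in Rag1-knockout and 12.6 CPM in C57BL/6 hosts.

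The large gene families were mostly spread around the median of all genes. Olfactory receptors, the odour sensors of the nose, made up 534 genes. Their median was -0.12, the same as that of all genes to 2 decimals, and 16 (3.00%) were at least 2-fold higher and 19 (3.56%) at least 2-fold lower in Rag1-knockout hosts, where all genes had 1.83% higher and 3.55% lower. They ran from Olfr869 (-1.89) to Olfr8 (1.73). Olfactory guides were less abundant than others in both hosts, with a median gene level of 28.9 CPM in Rag1-knockout and 31.3 CPM in C57BL/6 hosts. Vomeronasal and taste receptors, with 39 genes, had a median of 0.10 and 3 genes higher and 1 lower, from Tas2r119 (-1.21) to Tas2r138 (1.43). With summed reads Tas2r119 stood at -0.07, since 1 of its 4 guides was more abundant in Rag1-knockout hosts (147 CPM, against 73.9 CPM in C57BL/6 hosts). Of 216 solute carriers, 3 were higher and 8 lower, from Slc22a30 (-1.47) to Slc4a9 (1.42). Ion channels had 1 higher and 5 lower of 191, from the mechanosensor Piezo2 (-1.38) to Trpm7 (1.10), a channel fused to a kinase. Of 98 integrins and cadherins, 1 was higher (Pcdhb4, 1.26) and 2 were lower, with Cdh16 at -1.08. Tmem genes had 2 higher (up to Tmem128, 1.15) and 4 lower (down to Tmem229a, -1.16) of 94. Adhesion and orphan G protein-coupled receptors had 0 higher and 4 lower of 95, from Taar8c (-1.34) to Gpr173 (0.95), and ABC transporters had 0 higher and 1 lower of 22, from Abca12 (-1.02) to Abcc12 (0.75).

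Expression of the targeted gene in MC38 was set beside the host ratio and beside abundance. Cultured control cells gave at least 10 CPM of mRNA for 884 of the genes counted, and 2969 were listed at 0 or had no row in the gene table. The gene medians had an SD of 0.53 among the expressed genes and 0.498 among the others. A 2-fold difference in either direction was seen in 54 expressed genes (6.11%) and in 159 of the others (5.36%), beside 5.39% of all genes. With genes classed by the control tumours instead, the order turned. There 63 of 1136 genes expressed in the tumours (5.55%) and 133 of 2233 of the others (5.96%) were past 2-fold. The tumour classes do not record MC38 alone: Csf1r was listed at 0 in cultured cells and stood at 219 CPM in tumours. Among the 243 genes over 100 CPM, 20 were past 2-fold (8.23%), of which 16 were lower and 4 higher in Rag1-knockout hosts. In that class the intraclass correlation of the ratio was 0.0668, against 0.00503 among the 808 genes listed at 0. It did not rise steadily with expression: -0.0115 under 1 CPM, 0.0199 at 1 to 10 CPM and 0.00916 at 10 to 100 CPM. Genes without a row had 0.0164. For abundance the classes lay further apart. For genes over 100 CPM its intraclass correlation was 0.239 in the Rag1-knockout library and 0.247 in the C57BL/6 library. Genes listed at 0 had 0.0584 in the Rag1-knockout library and 0.0617 in the C57BL/6 library. Genes without a row had 0.133 in the Rag1-knockout library and 0.156 in the C57BL/6 library. The class at 10 to 100 CPM was near these, with 0.166 in the Rag1-knockout library and 0.168 in the C57BL/6 library. Both hosts had under 10 CPM for 14 of the 243 highly expressed genes (5.76%), for 1 of the 808 listed at 0 (0.124%), and for 26 of the 2161 without a row (1.20%).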

How the data were processed

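Guide abundance was taken from a deposited table of whole-number read counts per guide, and mRNA levels from a deposited table of whole-number read counts per gene symbol, neither normalised by the authors as far as the values show. Among tools listed without roles in the submitters' processing notes are HTSeq 0.13.5, STAR 2.7.1a and cutadapt 1.18. The notes also list the build hg38, although the symbols are mouse. The sources used here do not say how reads were assigned to guides. The table gives guide names without sequences, so cuts at near-identical genes (odorant receptors and other families) could not be checked.

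Counts were scaled to CPM by the library total. The log2 ratio was Rag1-knockout over C57BL/6 with 1 CPM added, for guides whose reads summed to 20 or more, and a gene needed 3 or more such guides to be counted. Past 2-fold means a log2 ratio of at least 1 or at most -1. Intervals are 95% exact (Clopper-Pearson) binomial; reads carry no molecular identifiers, so intervals and floors of 3 reads cover counting error only. The intraclass correlation came from a one-way analysis of variance components over genes with 4 guides. Symbols were matched to the gene table directly (2328 of 4532) or through RefSeq synonyms of GRCm38.p6 (41 more). Python 3.11.15, numpy 2.4.6, pandas 2.3.3 and scipy 1.17.1 were used, and the calculations were tested on simulated data.

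Named genes were Mbtps1, the 10 highest and 10 lowest medians with all guides on 1 side, the highest and lowest of each of 19 lists, a fixed set of immune, TGF-beta and sterol genes where targeted, and the 5 most abundant guides per library. Some genes that this rule names are not reported here. Other list members and the genes lowest in both hosts were chosen after their values were seen. The comparison and the lists were chosen with earlier results of these data known, and the pattern for the control guides was set once the table's names were seen.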

Additional observations from a re-analysis of the deposited data

How the results depend on the processing

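The counts of guides past 2-fold stayed within 1.5 times their value under each alternative tried, and the intraclass correlation stayed within 0.0131 to 0.0156. The counts of genes moved further. With 5 CPM added in place of 1, 42 genes were higher and 68 lower in Rag1-knockout hosts. With median-ratio scaling 131 were higher and 92 lower, and scaling to the control guides gave 111 and 110. With genes summarised by summed reads, 148 were higher and 140 lower, of which 42 and 71 were among those found with the median. The cause was not tested. Erap1 (-1.09) changed sign to 0.13 with summed reads. Of 934 other values, 907 stayed within a set tolerance (1.5-fold for list and gene medians), 26 moved further, and 1 gene past 2-fold, Erap1, reversed. Counting any change of sign, also of values near 0, 13 of 190 list medians (8 lists) and 10 of 720 gene medians (5 genes) changed sign. Leaving out each control cell library in turn put 6.10% to 6.24% of expressed and 5.35% to 5.36% of unexpressed genes past 2-fold. Classes from control tumours, which do not record MC38 alone, turned the order, with 5.55% of expressed and 5.96% of unexpressed genes. No paired analysis was possible because each host has 1 library and no result comes from a test. Depth limits little here, since the spread between guides of a gene exceeds counting error, except for genes near 1 CPM. What is missing is a repeat of each host.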

Other observations

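Guides at 0 in 1 host only were found for 9 genes in the C57BL/6 library and 4 in the Rag1-knockout library. The largest such differences were a guide to Nus1, a subunit of the enzyme that makes dolichol chains for glycosylation, with 125 reads in Rag1-knockout and 0 in C57BL/6 hosts (at least 59.2-fold higher, counted against 3 reads), and a guide to Olfr1436 with 80 reads in Rag1-knockout and 0 in C57BL/6 hosts (at least 37.9-fold higher). In the Rag1-knockout library the guide at 0 with most reads in the other host targets Ankle2, with 0 reads in Rag1-knockout and 19 in C57BL/6 hosts (at least 4.46-fold lower). These bounds do not cover the counting error of the reads observed.

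The most abundant guides leaned towards Rag1-knockout hosts. Among the 172 guides with a mean of at least 200 CPM over both hosts, 75 were at least 2-fold higher and 12 at least 2-fold lower in Rag1-knockout hosts, with a median log2 ratio of 0.79. The 6172 guides between 20 and 50 CPM had a median of -0.18. The guides were placed in these classes by the same reads that enter the ratio, so this is a description.

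By chromosome (GRCm38.p6), the median log2 ratio of the gene medians ran from -0.21 on chromosome 8 (207 genes) to 0.00288 on chromosome 5 (233 genes), beside -0.12 for all genes.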
